A study of Mus musculus with 2 samples.

Results

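The genes described here are 32 mouse genes known to be imprinted, chosen by name and without Gnas. Their counts were read from both libraries for every transcript model that carries their name, and 25 of the 32 were detected, against 16269 genes of the reference annotation detected in all. The libraries are long-read RNA sequencing of heart tissue from male B6CASTF1/J mice, hybrids of the inbred C57BL/6J strain and CAST, a strain derived from wild mice, at an age of 14 days. All samples form 1 group, with replicate 1 and replicate 2, and no treatment, genotype or second age is set against it. The starting amount was 2 µg of total RNA per library, and both libraries carry the same donor label. The labels mention several males per tissue sample without saying that tissue was pooled, and the descriptions of both libraries name the same tissue sample and cDNAs, so the spread between the replicates may be partly technical. A count is 1 long read assigned to a model, and counts were scaled to the library's total over reference genes (CPM).

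An imprinted gene is transcribed mainly from the copy inherited from 1 parent, under the control of DNA methylation set in the egg or the sperm. Imprinted genes lie in clusters in which a long noncoding RNA on the one parental copy often goes with silence of the protein-coding neighbours on that copy. Many of them act on growth before birth, paternally expressed ones often raising it and maternally expressed ones often restraining it, and in the mouse heart several are known to be strongly expressed in the fetus and to decline after birth. The animals are hybrids whose parental copies differ in sequence, but the deposited values are counts per model with no assignment to a parent, so the parent named for each gene below is background and not a measurement.

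The libraries held 1107678 and 1110707 counts, of which 95.6% and 95.9% fell on reference genes, so that 1 count was worth 0.944 CPM in replicate 1 and 0.939 CPM in replicate 2, and a floor of 3 counts was worth 2.83 and 2.82 CPM. Of the heart markers, all 6 cardiomyocyte genes were detected (32084 summed counts in replicate 1 and 34546 in replicate 2), as were all 6 fibroblast genes (5427 and 5618) and all 5 endothelial genes (687 and 675). Of the 6 cardiomyocyte genes, Tnni3 and Myl2 passed the threshold as higher in replicate 1, and Myh6 and Actc1 as higher in replicate 2. The libraries also differed in markers of the atria and of other tissue. The 4 atrial markers, all higher in replicate 1, summed to 5154 counts there and to 1278 in replicate 2. Thymus markers (5 genes) were at 0 in replicate 1 but summed to 69 counts in replicate 2. The 4 brown fat markers summed to 202 and 106 counts, with 2 of them past the threshold in replicate 1. Of the 4 liver markers, only Ttr was seen, with 0 counts and 1 count, and Alb, Apoa1 and Serpina1a were at 0. Of the 6 skeletal muscle markers, 3 were detected, nearly all through Acta1 (623 and 776 counts), which passed the threshold as higher in replicate 2. Myh1, Myh4 and Myod1 were at 0. Any part of these tissues in the values of the imprinted genes was not tested. In bulk tissue, fewer cells of a type and less RNA per cell cannot be told apart.

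The 32 genes took 1073 counts in replicate 1 and 1096 in replicate 2, which is 0.101% and 0.103% of the counts on reference genes (mean 0.102% ± 0.00115, SD, n = 2). The spread across genes was wide. Snrpn, Commd1, Mest and Cdkn1c together held 74.2% of these counts in replicate 1 and 73.3% in replicate 2. A group of 7 further genes had at least 10 counts in either library, 14 had fewer, and Peg10, Mirg, Magel2, Phlda2, Slc22a18, Usp29 and Ascl2 had none. The median level of the detected imprinted genes was 5.18 CPM, against 9.42 CPM over all detected genes. By gene type, 20 of 26 protein-coding members were detected (76.9%, against 62.5% of all annotated protein-coding genes), 2 of 3 long intergenic noncoding RNAs (66.7%, against 9.12%) and both antisense RNAs (against 22.2%). Of the 19 genes known for expression from the paternal copy, 16 were detected, with 697 counts in replicate 1 and 712 in replicate 2. Of the 11 known for the maternal copy, 7 were detected, with 210 and 222 counts. Grb10, whose parental copy depends on the promoter, and Commd1, maternal in some tissues, belong to neither class.

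**Figure D1:**
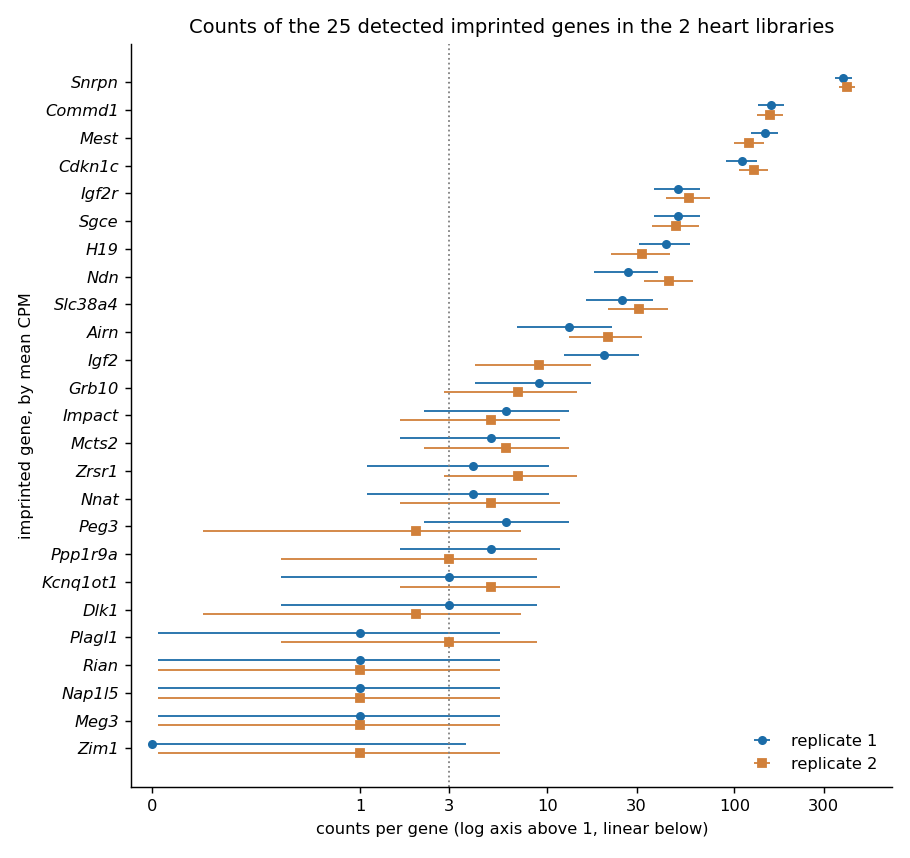
Counts per gene (horizontal axis, log scale above 1) for the 25 detected imprinted genes, ordered by mean CPM, with circles for replicate 1, squares for replicate 2 and bars for the exact 95% Poisson interval of each count. The dotted line marks 3 counts, and the genes run from Snrpn (383 and 401 counts) to Zim1 (0 counts and 1 count).

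Snrpn (ENSMUSG00000102252.5, chromosome 7, 59982495 to 60140219, minus strand, mm10), which encodes the splicing factor protein SmN and is paternally expressed, was the highest of the 32. It had 383 counts in replicate 1 and 401 in replicate 2 (369 ± 10.6 CPM). The libraries were alike to within their counting intervals, with a ratio of replicate 1 over replicate 2 of 0.96 (95% interval 0.833 to 1.11). Nearly all of its reads were whole transcripts: 378 and 398 were spliced and held a first exon, and 355 and 389 matched Snrpn-201, the 10-exon form and the only annotated Snrpn transcript with counts. RefSeq gives the gene several starts, and the farthest upstream of them, 60450177, lies outside the span given above. The upstream ones are known from brain and from oocytes. In the heart libraries 373 of 378 informative counts in replicate 1 (98.7%) and 396 of 398 in replicate 2 (99.5%) left from the downstream start. An upstream first exon lying at 60047889 to 60047959 carried 4 counts in replicate 1 (1.06%, 95% interval 0.289 to 2.69) and 2 in replicate 2 (0.503%, 0.0609 to 1.80). The intron that joins this exon to the body of the gene is not annotated, and it was read in both libraries with 3 and 2 counts.

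The sequences around these starts, and around the starts of Mest described below, are shown because the reads choose between them. The sequence at the start of Airn, also described below, is shown without such a choice. Promoter windows from RefSeq on GRCm38.p6 hold 250 bases before and 50 after an annotated start, and 27 of the 32 genes had at least 1 such window, 41 in all. H19, Cdkn1c, Peg10, Sgce and Impact had none. A window was matched to a counted start whose model end lay within 200 bases of the RefSeq start. For the downstream Snrpn start, the model end at 60005111 lies 88 bases downstream of the RefSeq start at 60005199. It is thus outside the printed window. Capitals mark the hexamer TGCCGC or, on the other strand, GCGGCA, which the mouse zinc finger protein ZFP57 is known to bind at imprinting control regions when the DNA is methylated. Matches on both strands were counted. A match on the one strand can share 2 bases with a match on the other, and both then count.

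Snrpn, downstream start, used, chr7:60005150-60005449, minus strand: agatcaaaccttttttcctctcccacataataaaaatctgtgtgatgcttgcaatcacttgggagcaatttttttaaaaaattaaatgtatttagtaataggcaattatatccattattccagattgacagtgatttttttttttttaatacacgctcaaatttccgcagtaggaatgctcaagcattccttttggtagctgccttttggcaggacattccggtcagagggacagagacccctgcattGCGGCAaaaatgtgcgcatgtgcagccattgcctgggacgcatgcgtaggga
Snrpn, upstream start, few reads, chr7:60047929-60048228, minus strand: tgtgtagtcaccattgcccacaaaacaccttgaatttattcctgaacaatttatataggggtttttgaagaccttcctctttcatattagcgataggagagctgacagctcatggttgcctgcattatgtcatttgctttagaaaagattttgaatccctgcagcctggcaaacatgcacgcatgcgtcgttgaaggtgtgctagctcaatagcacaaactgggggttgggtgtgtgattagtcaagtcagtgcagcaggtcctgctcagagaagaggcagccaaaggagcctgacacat
Mest, downstream start, used, chr6:30737800-30738099, plus strand: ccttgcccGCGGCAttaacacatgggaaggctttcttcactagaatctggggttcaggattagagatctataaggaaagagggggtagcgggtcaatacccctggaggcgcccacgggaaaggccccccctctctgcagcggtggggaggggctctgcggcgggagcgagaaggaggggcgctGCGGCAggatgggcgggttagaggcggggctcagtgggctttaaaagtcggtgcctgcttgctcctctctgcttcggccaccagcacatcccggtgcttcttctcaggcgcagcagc
Mest, upstream start, no reads, chr6:30733256-30733555, plus strand: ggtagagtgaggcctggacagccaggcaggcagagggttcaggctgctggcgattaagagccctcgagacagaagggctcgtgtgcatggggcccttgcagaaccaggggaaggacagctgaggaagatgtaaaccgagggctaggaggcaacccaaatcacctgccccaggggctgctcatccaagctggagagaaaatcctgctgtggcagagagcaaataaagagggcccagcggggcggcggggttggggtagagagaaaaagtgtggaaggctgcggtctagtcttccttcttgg
Airn, chr17:12741061-12741360, plus strand: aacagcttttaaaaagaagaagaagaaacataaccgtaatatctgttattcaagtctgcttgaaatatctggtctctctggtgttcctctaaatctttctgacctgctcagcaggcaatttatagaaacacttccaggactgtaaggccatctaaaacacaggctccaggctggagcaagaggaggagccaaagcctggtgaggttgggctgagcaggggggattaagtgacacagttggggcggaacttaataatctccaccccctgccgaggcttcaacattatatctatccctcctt

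The window matched to the used Snrpn start held 1 such hexamer and that matched to the used Mest start 2. The upstream Snrpn window, the upstream Mest window and the Airn window held 0. Over all windows of the imprinted genes, 12 of 41 held a match (29.3%), against 3813 of 32851 windows of all genes (11.6%). The median number of CpG dinucleotides was 10, against 7 over all windows. These are descriptions of letters in a fixed window, and windows of 1 gene can overlap.

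Mest (ENSMUSG00000051855.15, chromosome 6, 30723547 to 30748465, plus strand), a paternally expressed gene for a protein of the alpha/beta hydrolase fold that is known from mesoderm, had 146 counts in replicate 1 and 120 in replicate 2 (125 ± 17.8 CPM). Replicate 1 was the higher, with a ratio of 1.22 (95% interval 0.954 to 1.57). The downstream start, annotated at 30738050 and at the same base in RefSeq, gave all 131 informative counts in replicate 1 and all 109 in replicate 2. That base is the end of the annotated model and not a measured end of reads. No read left from the upstream start, and the exact interval of the downstream share runs down to 97.2% in replicate 1 and 96.7% in replicate 2. A single annotated transcript, Mest-211 with 12 exons, took 125 and 106 counts, all that fell on annotated transcripts of the gene. An unannotated donor 15 bases downstream of the usual one was joined to the acceptor at 30744353 in 4 of 132 counts and 1 of 112.

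The microRNA genes Mir335, inside Mest, and Mir675, inside H19, sit in different parts of their hosts. The Mir335 hairpin (chromosome 6, 30741299 to 30741396) was spanned by a removed intron in 132 Mest counts of replicate 1 and 111 of replicate 2 and was retained in 0. Mir675 (chromosome 7, 142577064 to 142577147) lay within an exon of the models of 42 and 30 H19 counts. The mature sequences, from RefSeq, are printed with the seed, bases 2 to 8, in capitals.

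mmu-miR-335-5p: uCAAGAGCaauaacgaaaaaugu
mmu-miR-335-3p: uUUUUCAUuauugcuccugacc
mmu-miR-675-5p: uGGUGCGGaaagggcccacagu
mmu-miR-675-3p: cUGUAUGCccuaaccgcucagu

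Their 4 seeds differ from each other. The counts are of long host transcripts only, and the mature microRNAs were not measured by this assay.

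H19 (ENSMUSG00000000031.16, chromosome 7, 142575529 to 142578143, minus strand), the maternally expressed noncoding RNA next to Igf2, had 43 counts in replicate 1 and 32 in replicate 2 (35.3 ± 7.46 CPM). Its 5-exon form H19-202 carried 42 and 30 of them. Igf2 (ENSMUSG00000048583.16, chromosome 7, 142650766 to 142666816, minus strand), the paternally expressed insulin-like growth factor, had 20 counts in replicate 1 and 9 in replicate 2 (13.7 ± 7.38 CPM). Replicate 1 was the higher for both genes, and the intervals of both ratios hold 1. Igf2's share of the summed Igf2 and H19 counts was 31.7% in replicate 1 (95% interval 20.6 to 44.7) and 22.0% in replicate 2 (10.6 to 37.6), so H19 had the more reads in each library. Igf2 has 4 RefSeq promoter windows, but the data cannot tell which start was used: 18 of 20 counts and 8 of 9 fell on a single-exon model of 856 bases at the 3′ end of the gene.

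The IGF2 receptor Igf2r (ENSMUSG00000023830.14, chromosome 17, 12682406 to 12769664, minus strand), which is maternally expressed and carries IGF2 to the lysosome, had 50 counts in replicate 1 and 57 in replicate 2 (50.4 ± 4.47 CPM). Its transcript has 48 exons and a length of 8887 bases, and 3 counts in replicate 1 and 6 in replicate 2 matched it as a whole. The median Igf2r read had 5 exons in each library, while 23 and 15 counts had a single exon. Reads with more than 20 exons numbered 8 and 14. Models that began at the annotated first exon held 4 and 6 counts, so the 5′ part of this gene was seen in few reads.

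Airn (ENSMUSG00000078247.4, chromosome 17, 12741311 to 12860136, plus strand) is the paternally expressed noncoding RNA that starts in an intron of Igf2r, runs across the Igf2r start on the opposite strand, and is known to silence Igf2r on that copy in mice. It had 13 counts in replicate 1 and 21 in replicate 2 (16.0 ± 5.27 CPM), with a ratio of 0.622 (95% interval 0.286 to 1.30). Airn's share of the summed Airn and Igf2r counts was 20.6% in replicate 1 (11.5 to 32.7) and 26.9% in replicate 2 (17.5 to 38.2). Spliced reads with the annotated first exon gave 2 and 4 counts. Most of the rest were unspliced models outside the annotated exons, which held 8 counts in replicate 1 and 13 in replicate 2. In both libraries such models ended at the same bases, 12764017 (3 and 4 counts) and 12767616 (4 and 6 counts), before the annotated start of Igf2r. The strand of an unspliced read rests on how the authors oriented it, which is not given in the sources used here.

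**Figure D2:**
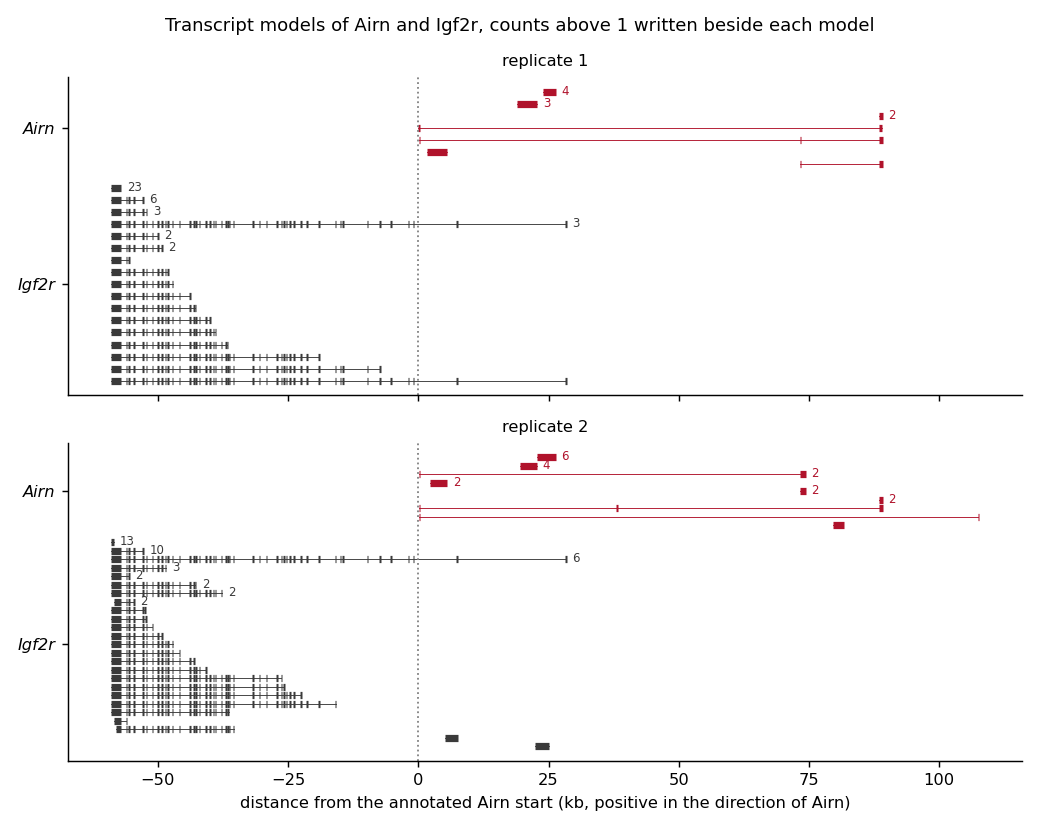
Transcript models of Airn (red) and Igf2r (dark) in replicate 1 (upper panel) and replicate 2 (lower panel), by distance in kb from the annotated Airn start, with thick bars for exons, thin lines for introns and the count written where it is above 1. Igf2r models pile up at its 3′ end on the left, 3 and 6 counts span the whole gene, and unspliced Airn models outside the annotated exons end at 2 places shared by the libraries.

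Cdkn1c (ENSMUSG00000037664.13, chromosome 7, 143458339 to 143461050, minus strand), the maternally expressed p57 inhibitor of cyclin-dependent kinases, had 110 counts in replicate 1 and 127 in replicate 2 (112 ± 10.9 CPM). The ratio was 0.871 (95% interval 0.668 to 1.13). Its reads were spread over many splice forms, and Cdkn1c-201, the leading annotated one, carried 33 and 34 counts. At intron 1 the leading acceptor took 69 of 98 counts in replicate 1 (70.4%, 60.3 to 79.2) and 60 of 107 in replicate 2 (56.1%, 46.1 to 65.7). An acceptor 3 bases downstream, whose intron is not annotated, took 22 counts in replicate 1 (22.4%) and 36 in replicate 2 (33.6%). An annotated acceptor 38 bases upstream took 7 and 11 counts. Intron 2 had a pair of annotated donors that lay 36 bases apart. The upstream one took 60 of 107 counts in replicate 1 (56.1%) and 69 of 119 in replicate 2 (58.0%), and the downstream one 47 (43.9%) and 50 (42.0%).

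All 6 combinations of these acceptors and donors were read in both libraries. The leading acceptor with the upstream donor held 38 of 98 and 39 of 107 counts, and the leading acceptor with the downstream donor held 31 and 21. The acceptor 3 bases on was joined to the upstream donor in 13 and 20 counts and to the downstream donor in 9 and 16. At each single acceptor and donor above the intervals of the libraries overlapped, which does not show that the shares were alike. The combinations were given no intervals, and none of these choices was tested by itself. Among new multi-exon models (classes NIC, new combinations of known splice sites, and NNC, with a new splice site), Cdkn1c gave the 3 most frequent ones of these genes that were in both libraries, with 27 and 17, 12 and 20, and 9 and 15 counts. Over all the imprinted genes 15 of 55 such models were in both libraries (27.3%), against 18.0% over all reference genes, and with at least 5 counts in total 8 of 8 were, against 97.4%.

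**Figure D3:**
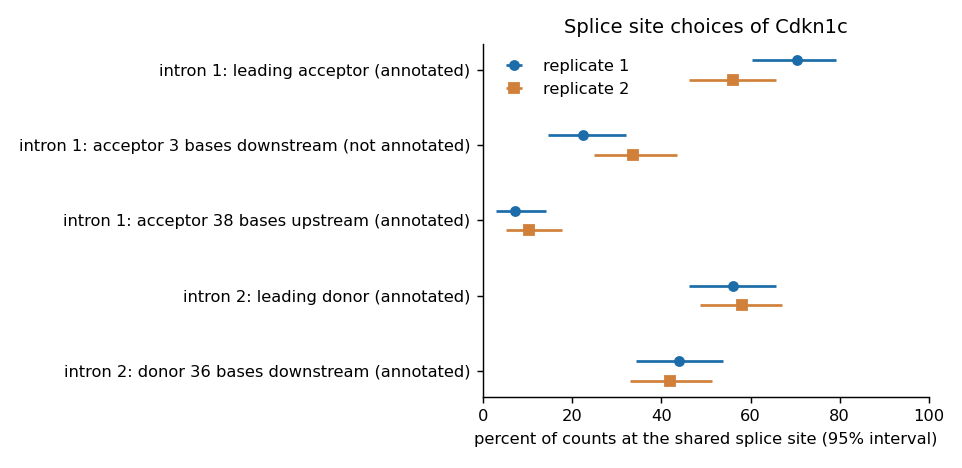
Share of Cdkn1c counts (horizontal axis, percent) that used each acceptor of intron 1 and each donor of intron 2, with circles for replicate 1, squares for replicate 2 and bars for the exact 95% interval. The acceptor 3 bases downstream took 22.4% and 33.6%. The intervals of the libraries overlap in every row, and overlap is not a test of a difference.

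The other 4 of the 32 genes that lie in the Cdkn1c cluster had 5 counts or fewer in each library. Kcnq1ot1, the paternal noncoding RNA antisense to Kcnq1 that is known to silence this cluster, had 3 counts in replicate 1 and 5 in replicate 2, against 34 and 37 for the channel gene Kcnq1 itself. Its annotated transcript is a single exon of 93092 bases, so a read assigned to it need not hold either end. Phlda2, a placental growth regulator, the transporter gene Slc22a18 and Ascl2, a transcription factor of trophoblast, had 0 counts, for which the floor of 3 counts stands at 2.83 CPM in replicate 1 and 2.82 CPM in replicate 2 (the two-sided exact Poisson interval of 0 counts reaches 3.69 counts).

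Sgce (ENSMUSG00000004631.15, chromosome 6, 4674350 to 4747207, minus strand), paternally expressed, encodes epsilon-sarcoglycan of the dystrophin-associated complex. It had 50 counts in replicate 1 and 49 in replicate 2 (46.6 ± 0.842 CPM), a ratio of 1.03 (0.678 to 1.55). All 46 informative counts of each library shared 1 start. The form Sgce-205 took 35 and 30 counts and Sgce-202, which lacks a 27-base exon (4690469 to 4690495), took 6 and 7. That exon was included in 40 of 46 counts in replicate 1 (87.0%, 73.7 to 95.1) and in 39 of 46 in replicate 2 (84.8%, 71.1 to 93.7). The divergent neighbour Peg10, a retrotransposon-derived gene whose start lies beside that of Sgce, had 0 counts in either library. Ppp1r9a, for the actin-binding protein neurabin, had 5 and 3 counts, all on single-exon models at its 3′ end.

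Ndn (ENSMUSG00000033585.5, chromosome 7, 62346569 to 62350262, plus strand), the paternally expressed gene for the MAGE protein necdin, had 27 counts in replicate 1 and 45 in replicate 2 (33.9 ± 11.9 CPM). Replicate 2 was the higher, with a ratio of 0.603 (0.360 to 0.993). Ndn has a single exon and all its counts fell on the annotated transcript. Magel2, the MAGE gene next to it, had 0 counts. Slc38a4 (ENSMUSG00000022464.14, chromosome 15, 96994820 to 97055956, minus strand), a paternally expressed amino acid transporter gene, had 25 and 31 counts (26.4 ± 3.90 CPM). Its farthest upstream start, annotated at the same base as in RefSeq, gave 21 of 23 informative counts in replicate 1 and 25 of 29 in replicate 2. Slc38a4-201 with 16 exons took 21 and 24. A first exon at 97054892 to 97055258, whose join to the next exon is not annotated, carried 1 and 3 counts.

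Commd1 (ENSMUSG00000051355.18, chromosome 11, 22896136 to 22982382, minus strand), which encodes a protein of copper transport and NF-kappa-B regulation, had 157 counts in replicate 1 and 155 in replicate 2 (147 ± 1.89 CPM). The ratio was 1.02 (0.810 to 1.28), and Commd1-204 took 148 and 150 counts. The start of Commd1-205 was read in replicate 1 with 6 of 157 counts (3.82%, 1.42 to 8.13) and in replicate 2 with 0 of 153 (up to 2.38%). Zrsr1, the paternally expressed retrogene of the splicing factor gene Zrsr2 that lies in a Commd1 intron on the other strand, had 4 and 7 counts, or 2.48% and 4.32% of the counts of the pair. The other genes that lie inside a host showed the same order, with Mcts2 at 5 and 6 counts in H13 (105 and 132), Nnat at 4 and 5 in Blcap (137 and 132) and Nap1l5 at 1 and 1 in Herc3 (15 and 32). Zrsr1 and Mcts2 are close copies of Zrsr2 (8 and 10 counts) and Mcts1 (49 and 34), so their few reads are uncertain. The Nnat counts are uncertain too. In each library 4 were on unspliced models with 17.1% to 24.7% of their bases in annotated exons, which ran past an end of the gene. An annotated Nnat transcript held 0 counts in replicate 1 and 1 in replicate 2.

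The genes with the fewest reads gave little more than detection. Grb10, an adaptor that dampens insulin receptor signalling, had 9 counts in replicate 1 and 7 in replicate 2. The 3 and 2 counts that held a first exon used the upstream RefSeq start. The zinc finger gene Peg3 had 6 and 2 counts, all on unspliced 3′ models, and its divergent neighbour Usp29 had 0. Impact, for an inhibitor of the kinase GCN2, had 6 and 5. Of the Dlk1-Meg3 cluster on chromosome 12, the Notch-related ligand gene Dlk1 had 3 and 2 counts, the noncoding RNAs Meg3 and Rian 1 and 1 each, and Mirg 0. Plagl1, a zinc finger gene, had 1 and 3 counts, and Zim1 had 0 and 1. The fewer the counts, the larger the difference that a test could show. The smallest fold toward replicate 1 that would pass was 3.85 for Igf2, against 1.26 for Snrpn. Genes under 10 counts in sum were not tested.

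Divided by kilobases of model length, the counts fell in another order. A count is a read whatever its length, and model lengths are not read lengths, so this is not an order of molecule numbers. Snrpn stayed at the top with 195 CPM per kb, Cdkn1c came next with 60.6 CPM per kb, then Mest with 50.8 and Commd1, whose main transcript is 4508 bases long, with 33.9 CPM per kb. Igf2, number 11 by CPM, was number 8 per kb (15.1 CPM per kb), on the short models that its reads gave. Igf2r, number 5 by CPM, was number 7 per kb (15.8 CPM per kb).

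How far a gene's reads reached differed between these genes. Spliced models with a first exon held 83.8% of the counts of the 32 genes in replicate 1 and 82.7% in replicate 2, against 86.6% and 87.0% over all reference genes. A new model (NIC or NNC) counts here with the exon it begins with, annotated or not. The share was 98.7% and 99.3% for Snrpn, but 10.0% and 14.0% for Igf2r, 10.0% and 11.1% for Igf2, and 15.4% and 19.05% for Airn. Of the 5 and 8 Igf2r counts in this share, 4 and 6 were on models that began at the annotated first exon. By the authors' model classes, 77.5% and 79.3% of the counts of the 32 genes were on Known transcripts, against 80.7% and 80.4% over all genes. Genomic models, which are unspliced or hold intron sequence, had 3.45% and 5.02%, against 2.77% and 2.63%.

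**Figure D4:**
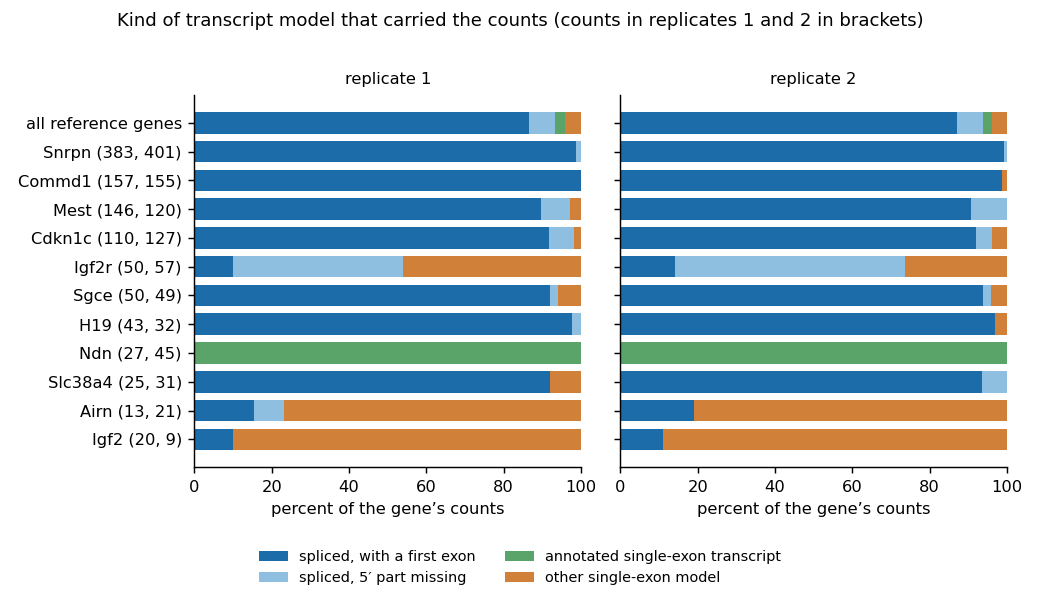
Percent of each gene's counts (horizontal axis) on spliced models with a first exon, spliced models without one, annotated single-exon transcripts and other single-exon models, in replicate 1 (left) and replicate 2 (right), for all reference genes and the 11 imprinted genes with at least 10 counts in either library. Of the spliced genes, Igf2r, Airn and Igf2 have 10.0% to 19.05% of counts on spliced models with a first exon, and Ndn, a gene with a single exon, has 0%. The first exon of a new model (NIC or NNC) need not be an annotated one.

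A test between the libraries compares these 2 libraries and not conditions, and its p-values hold counting error only. By a two-sided exact binomial test with Benjamini-Hochberg adjustment over all 10162 genes with at least 10 counts in sum, 331 genes (3.26%) passed the threshold of 0.05. Of the 15 imprinted genes tested, 0 passed, and 2 had an unadjusted p under 0.05. These were Igf2, higher in replicate 1 (ratio 2.23, 95% interval 0.972 to 5.57, exact binomial p = 0.0422, adjusted p = 0.372), and Ndn, higher in replicate 2 (exact binomial p = 0.0444, adjusted p = 0.380). The other 13 had higher adjusted p. The share of all tested genes with an unadjusted p under 0.05 is not given here, so the 2 have no background beside them. On the log2 scale of CPM plus 1, the ratio was 1.07 for Igf2 and -0.71 for Ndn. By sign alone, 7 of the 15 leaned to replicate 1 and 8 to replicate 2. How all tested genes split by sign is not given here, so this split has no background beside it. By the threshold, 1.65% of all tested genes passed toward replicate 1 and 1.6% toward replicate 2, against 0 of the 15 in either direction. The median log2 ratio was -0.06, against -0.08 over all tested genes, and the median size of the ratio regardless of sign was 0.29, the same as over all tested genes to 2 decimals. Leading starts and leading annotated transcripts were compared by two-sided Fisher's exact tests adjusted over all genes. In the first, 2 of 2520 genes passed (0.0794%) and 0 of 5 imprinted genes, and in the second 1 of 2633 (0.038%) and 0 of 4.

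**Figure D5:**
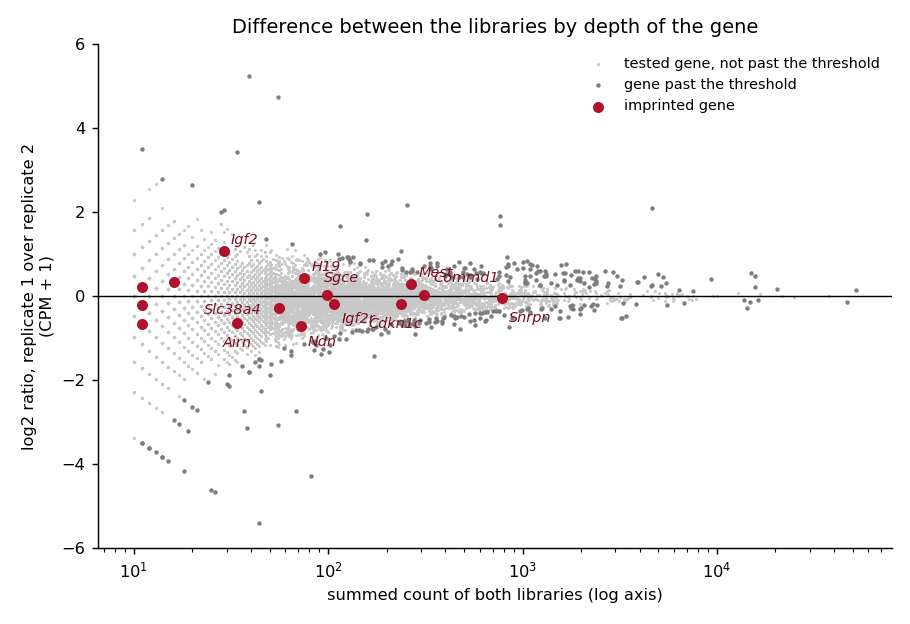
Log2 ratio of replicate 1 over replicate 2 (vertical axis, CPM plus 1) against the summed count of both libraries (log axis) for all 10162 tested genes, with genes past the threshold in dark grey and the 15 tested imprinted genes in red. The 331 genes past the threshold include 0 of the red points, and Igf2 at 1.07 and Ndn at -0.71 lie farthest out.

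Other genes that carry or read imprints were present as well. Of 57 further genes reported as imprinted in some mouse tissue, 39 were detected, and of 28 tested 0 passed, with 2 at an unadjusted p under 0.05 in the exact binomial test. The highest were the tetraspanin gene Cd81 (2568 counts in replicate 1 and 2447 in replicate 2) and Dcn, for the matrix proteoglycan decorin (783 and 686). Nap1l4, a histone chaperone gene, had 156 counts in each and Bcl2l1, for the survival factor BCL-XL, had 131 and 161. Of 24 genes for factors that set, keep or read imprints, 22 were detected, and of 15 tested 0 passed, again with 2 at an unadjusted p under 0.05. The median log2 ratio of these 15 was -0.42, against -0.08 over all tested genes, and 13 of them had the lower value in replicate 1. The shares of all tested genes with a lower value in replicate 1, or with an unadjusted p under 0.05, are not given here. The thymus markers were also lower there (5 of 5 genes, 0 summed counts against 69). The libraries further differed by a trend on transcript length, with 331 of all tested genes called before and 204 after its removal. The part of either in this shift was not tested. The highest were Trim28, the corepressor that ZFP57 recruits, with 105 counts in replicate 1 and 142 in replicate 2, and the de novo DNA methyltransferase gene Dnmt3a, with 28 and 53. The cohesin gene Smc1a had 38 and 39 counts, and Eed of the Polycomb complex had 29 and 46.

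Models outside the reference genes lay near some of these loci. A region upstream of Nnat on the same strand carried an unspliced intergenic model with 8 counts in replicate 1 and 11 in replicate 2, which ended at the same base, 157555583 on chromosome 2, in both. Near Phlda2 and Slc22a18, themselves at 0, an unspliced model from 143524660 to 143527144 on chromosome 7, of the authors' antisense class, held 4 and 10 counts. Antisense models over Grb10 held 4 and 8 counts, those over Plagl1 5 and 2, those over Commd1 5 and 0, and those over Snrpn 2 and 3. The annotated Snrpn span also holds Snurf, a small protein encoded upstream in the same messenger RNA, and no model named for Snurf carried a count, so reads that hold both were counted on Snrpn.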

How the data were processed

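Values are whole-number counts of long reads per transcript model, deposited by the authors without normalization, per the file headers. Models and their exons are on mm10 with GENCODE M21, per the files' notes, and new models carry the source name TALON. Which sequencer, aligner, versions and filters were used is not given in the sources used here. Annotated models carry annotated ends, so a model's length and ends are not those of a read. Exon numbers, lengths and coordinates are the authors' deposited values, per the file headers. Gene spans came from the GENCODE M21 annotation.

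Counts were summed per gene and scaled to totals over reference genes. Models on new genes (2.68% and 2.89%) and spike-ins (1.72% and 1.25%), which name no reference gene, were left out. The members, gene lists, pairs and tests were chosen with earlier results of these data known. By rule, all 32 members are accounted for, those with at least 10 counts in full, with the 4 highest genes of each other list. Neighbours come from a list of 22 pairs. Starts were counted on spliced models, with overlapping first exons taken as 1 start. Incomplete models that lack the 5′ part were left out, and the test of starts took genes with at least 20 informative counts in each library. Promoter windows and microRNAs came from RefSeq (GRCm38.p6). Intervals are exact at 95% (Clopper-Pearson for shares, Poisson for counts). Because no molecular identifiers were counted, reads may repeat a molecule, and the intervals and floors hold counting error alone. The tests were checked on simulated data. SciPy 1.17.1, edgeR 4.0.16 and DESeq2 1.42.0 (scaling only) were used.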

Additional observations from a re-analysis of the deposited data

How the results depend on the processing

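No imprinted gene passed the threshold between the libraries under any of the 10 alternatives that enter the test (another pseudocount does not). The number of genes called among all, 331, came to 22 with edgeR's exact test on a common dispersion (coefficient of variation 0.124). That dispersion was estimated from the same 2 libraries that the test compares, so their difference enters it and lowers the number called. The number was 204 with a trend on transcript length removed, and 261 to 346 under the rest. The detected number of members, 25, was 18 with at least 3 counts in each library, 19 on Known models, 20 without Genomic models, and 24 to 25 with a single library. The summed share of 0.102% was 0.0994% on Known models, 0.101% without Genomic models, 0.0963% on multi-exon models, and 0.101% to 0.103% with a single library, and the Known share of 78.4% ranged from 77.5% to 79.3%. The log2 ratio of Snrpn, -0.06, was 0.0231 with TMM scaling, 0.0216 with median ratio size factors and 0.0047 with the length trend removed. That of Igf2r, -0.18, was 0.26 without Genomic models, 0.0320 with the length trend removed and -0.61 on multi-exon models. TMM scaling moved the median log2 ratio of all genes by 0.09. With ISM models (incomplete matches to an annotated transcript) counted as forms of their own, 1 of 8 members passed in the transcript test. It was Igf2r, whose leading single-exon ISM model held 23 of 48 counts in replicate 1 and 0 of 40 in replicate 2 (Fisher's exact test, adjusted p = 1.01e-05), where 13 counts fell on a Genomic model within the same last exon. Requiring at least 2 counts in each library left 9 new multi-exon models in both, against 15. Levels that moved by over 1.5 times, with totals taken over the same models, were on Known models Cdkn1c (50.3 CPM, against 112 CPM on all models), Igf2r (5.26 against 50.4 CPM), Igf2 (0.585 against 13.7 CPM) and Airn (1.75 against 16.0 CPM). Airn was also at 6.29 CPM without Genomic models. On multi-exon models Igf2 was at 1.51 CPM, Airn at 3.52 CPM and Ndn, which has a single exon, at 0. A test of starts or transcripts with a library left out could not be made, since it compares the libraries. No paired analysis was possible because there is 1 group. At this depth, differences toward replicate 1 of under 2.01-fold in Sgce and under 3.88-fold in Airn could not pass. The limit toward replicate 2 was not computed, and the parental origin of the reads was not analysed here.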
